A study of Mus musculus with 12 samples.

Results

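The genes described here encode secreted peptide hormones and stress cytokines: Ghrh, Amh, Adm2, Adm, Apln, Edn1, Gdf15, Fgf21, Stc1 and Stc2. They are 10 of the 39423 genes in the deposited tables, found by gene name. They were chosen on their levels in the 4 groups of these same libraries, so their differences between groups are given as a description, with no p-value.

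Peptide hormones are made as longer precursors that enter the secretory pathway, are cut by convertases and are often amidated before release. A cell that receives them needs the matching receptor, and some receptors need an accessory protein to gain their ligand preference. GDF15 and FGF21 are cytokines that many cell types release under stress, and fat cells are a known source of apelin, adrenomedullin and FGF21.

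The study asked how PRMT1, the enzyme that places most asymmetric dimethylarginine on proteins, takes part in fat cell formation. RNA-seq was run on 3T3-L1 cells, a mouse embryonic fibroblast line that turns into adipocytes under a hormone cocktail. Cells carried a control siRNA (labelled NC, here siCtrl) or an siRNA against Prmt1 (siPRMT1), and the labels give MDI treatment for 24 hours (day 1) or 72 hours (day 3). The cocktail holds dexamethasone, 3-isobutyl-1-methylxanthine and insulin, all 4 groups received it, and none was left without it. Each group had 3 libraries, 12 in all, and all came from the 1 line. Which of the siRNAs tested by the study was used for sequencing is not given in the sources used here, and neither the labels nor the sequencing methods say whether the replicates of a group were separate cultures. A general note on statistics in the study speaks of independent experiments without naming the sequencing. Every error below measures the spread between these libraries, part of which may be technical.

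Library totals ranged from 15116462 to 42357137 counts, and 3 counts, taken as the detection floor of a library, were worth 0.0736 to 0.199 CPM, the count scaled to the depth of its library. Prmt1 itself averaged 150.4 CPM in siCtrl and 68.3 CPM in siPRMT1 at day 1, and 206.0 and 110.8 CPM at day 3. Preadipocyte markers were present in every group, and 1 of the 6 was called at day 3, Pdgfra, a receptor of platelet-derived growth factor, higher by 0.60 ± 0.06 (log2, edgeR, adjusted p = 2.0e-05). The summed CPM of 6 adipocyte markers was 161 to 201 at day 1 and 1988 to 2177 at day 3 in siCtrl. In siPRMT1 the same sum was 106 to 118 at day 1 and 1579 to 1721 at day 3. Of these markers, Pparg and Cebpa, the central transcription factors of fat cell formation, were called lower at day 1, by -0.52 ± 0.07 and -0.88 ± 0.15 (adjusted p = 0.0066 and 0.0156), and held in 5 and 3 of the 6 fits that left out 1 library. Adipoq and Plin1, for the hormone adiponectin and the lipid droplet coat protein perilipin, were called lower at day 3, by -0.69 ± 0.08 and -0.71 ± 0.08 (adjusted p = 2.7e-05 and 1.8e-05). In these bulk libraries, fewer cells of a type and less RNA per cell cannot be told apart. The siCtrl day 1 replicate 3 library stood apart from the other 2 of its group, with a chi-square per gene of 50.6 and 30.8 against 4.14 to 15.8 for the other 10 replicate pairs. The counts of called members in the comparisons that use it are given with and without it.

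The promoters of the genes whose knockdown difference was called and that had an entry in the RefSeq table are shown first, because the members that moved together at day 1 or day 3 can then be read against their start-site sequence. Of the 10 genes, 8 (all but Amh and Stc1) had a RefSeq promoter entry (GRCm38.p6), with 10 windows of 300 bases that run from 250 bases before to 50 bases after a transcript start. Each is written 5′ to 3′ on the strand of the gene. Capitals mark matches to any of 4 motifs searched on both strands: the C/EBP-ATF response element TGATGNAAN, the cAMP response element TGACGTCA, the hypoxia response element core ACGTG and the glucocorticoid half-site pair ACANNNTGT.

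The windows belong to Ghrh (chr2:157337377-157337676 and chr2:157346606-157346905, minus strand), Adm2 (chr15:89322470-89322769, plus strand), Apln (chrX:48034804-48035103, minus strand) and Gdf15 (chr8:70632046-70632345 and chr8:70632407-70632706, minus strand).
Ghrh, first window: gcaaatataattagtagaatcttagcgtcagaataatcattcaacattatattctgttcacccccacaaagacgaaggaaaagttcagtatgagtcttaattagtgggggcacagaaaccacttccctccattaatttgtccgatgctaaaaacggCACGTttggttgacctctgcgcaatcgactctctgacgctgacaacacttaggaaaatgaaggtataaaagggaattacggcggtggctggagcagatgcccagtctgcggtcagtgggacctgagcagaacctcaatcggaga
Ghrh, second window: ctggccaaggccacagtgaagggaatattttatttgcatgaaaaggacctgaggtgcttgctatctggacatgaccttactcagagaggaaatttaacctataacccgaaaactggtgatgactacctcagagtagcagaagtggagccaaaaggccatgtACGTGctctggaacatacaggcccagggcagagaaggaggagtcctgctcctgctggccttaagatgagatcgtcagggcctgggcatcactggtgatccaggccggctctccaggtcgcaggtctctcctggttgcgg
Adm2: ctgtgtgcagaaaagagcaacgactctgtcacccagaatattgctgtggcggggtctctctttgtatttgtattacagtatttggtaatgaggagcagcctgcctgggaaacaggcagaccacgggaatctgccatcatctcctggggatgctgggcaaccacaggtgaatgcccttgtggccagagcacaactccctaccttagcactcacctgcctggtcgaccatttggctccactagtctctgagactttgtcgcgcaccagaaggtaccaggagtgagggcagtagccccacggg
Apln: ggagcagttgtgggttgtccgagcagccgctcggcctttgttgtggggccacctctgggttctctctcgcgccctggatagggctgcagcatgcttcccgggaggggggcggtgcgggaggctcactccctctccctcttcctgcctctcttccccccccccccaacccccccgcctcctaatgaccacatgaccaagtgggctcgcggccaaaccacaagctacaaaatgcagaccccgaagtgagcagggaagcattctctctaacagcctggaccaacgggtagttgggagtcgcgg
Gdf15, first window: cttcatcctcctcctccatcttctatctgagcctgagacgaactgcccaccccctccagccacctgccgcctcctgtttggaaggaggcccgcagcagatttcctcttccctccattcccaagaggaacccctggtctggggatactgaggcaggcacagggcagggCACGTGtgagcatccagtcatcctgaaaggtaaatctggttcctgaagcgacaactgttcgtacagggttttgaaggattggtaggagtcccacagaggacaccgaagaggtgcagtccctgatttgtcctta
Gdf15, second window: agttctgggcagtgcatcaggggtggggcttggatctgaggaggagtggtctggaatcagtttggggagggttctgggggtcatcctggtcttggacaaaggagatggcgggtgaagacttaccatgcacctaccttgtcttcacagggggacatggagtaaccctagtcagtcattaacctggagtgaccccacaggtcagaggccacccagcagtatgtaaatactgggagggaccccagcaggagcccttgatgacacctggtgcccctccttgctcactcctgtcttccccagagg

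The hypoxia core was found in both Ghrh windows, starting 94 and 89 bases before the start, and in the first Gdf15 window, where matches on both strands overlap in CACGTG. It was also found in the windows of Edn1 and Fgf21, so that 5 of the 10 windows (4 of the 8 genes) held it, against 19.6% of all 32851 promoters in the table. The Fgf21 window also held the only C/EBP-ATF match among the members, ATTGCATCA on the reverse strand, a motif in 3.95% of all promoters. Neither the cAMP element (1.79% of all promoters) nor the glucocorticoid pair (6.85%) was found in any of the 10 windows. The Adm2 and Apln windows held none of the 4 motifs. A match is a string of letters and was not tested as a binding site, and the gene-level counts do not separate the starts of Ghrh or of Gdf15.

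At day 1 the members that differed between the siRNA groups were higher after knockdown. A gene was called where edgeR's quasi-likelihood test gave an adjusted p under 0.05, over all genes tested, and the log2 fold change was over 0.5 in size. Of the 10 members, 6 had enough counts to be tested at day 1. Of these, 4 were called higher (Amh, Adm2, Apln and Gdf15) and 0 lower, where 1.95% of the 13689 genes tested were called higher and 1.61% lower. The median log2 fold change of the 6 was 1.23, and that of all genes was 0.0096. These genes were chosen on the same values, so nothing is read from the difference. The filter on low counts asks for a minimum depth-scaled level in 3 libraries. Adm2 in siCtrl replicate 2 (9 counts) and Gdf15 in siCtrl replicate 1 (13 counts) were below it. Both genes thus passed only through siPRMT1, and nothing is read from the direction of their calls.

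**Figure D1:**
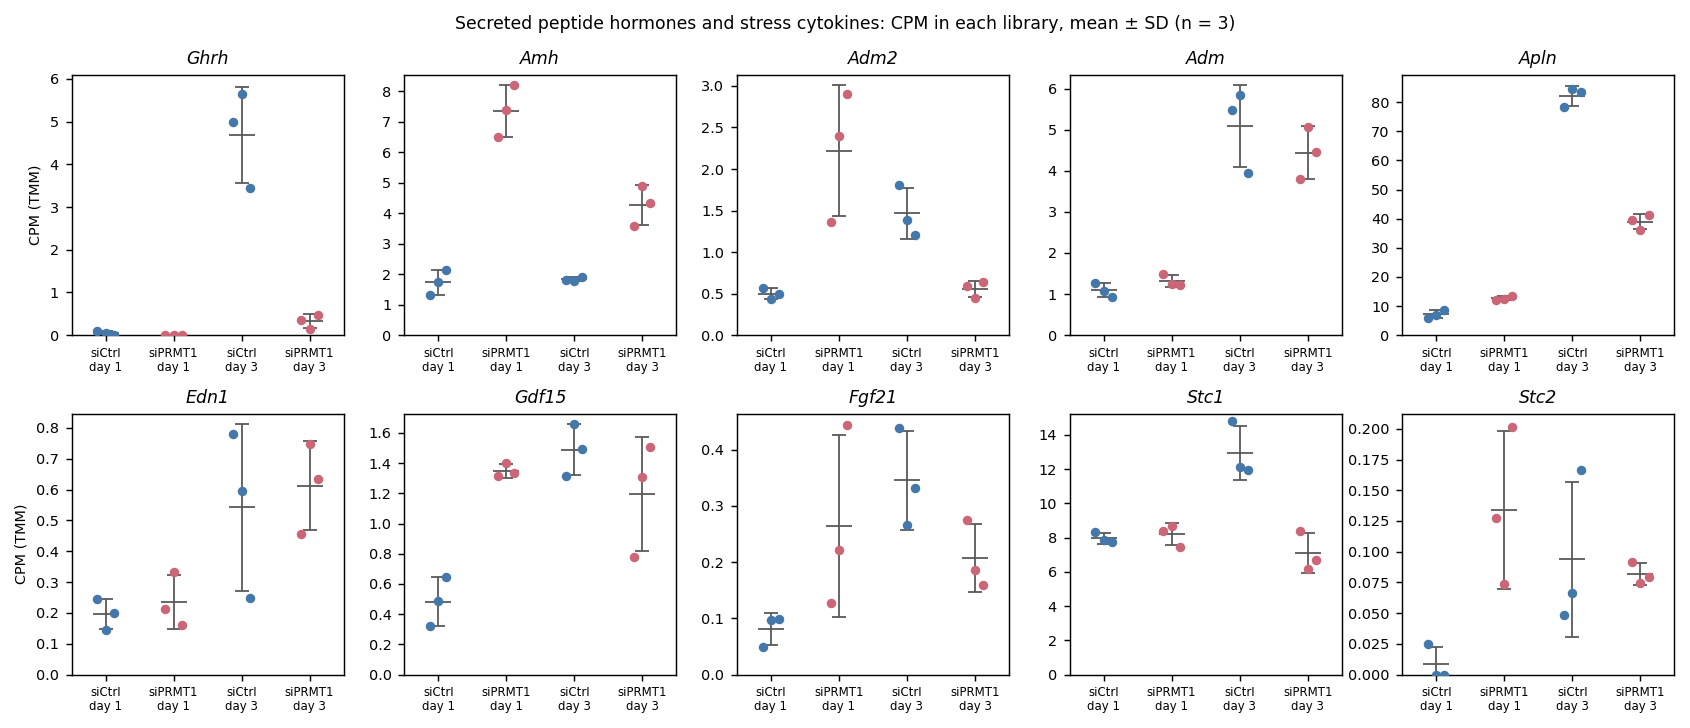
CPM (y axis, linear, scaled within each panel) of the 10 genes in the 12 libraries, by group on the x axis. Points are libraries, blue for siCtrl and red for siPRMT1, and bars are the mean and SD of 3 libraries. At day 1 the siPRMT1 points of Amh, Adm2, Apln and Gdf15 lie above all siCtrl points, and at day 3 those of Ghrh, Adm2, Apln and Stc1 lie below them.

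At day 3 the balance was the other way. Of 8 members tested, 1 was called higher (Amh) and 4 lower (Ghrh, Adm2, Apln and Stc1), where 2.84% of the 14039 genes tested were called higher and 3.8% lower. The median log2 fold change was -0.57, against 0.0073 over all genes. The groups did not overlap in 4 of the 6 genes tested at day 1 and in 5 of the 8 tested at day 3, where 31.3% and 34.9% of all genes tested did not overlap. Fgf21 and Stc2 had too few counts to be tested at any point, and Ghrh and Edn1 had too few at day 1. A gene that passes the filter only through its high group has its direction set by the filter. This holds for Ghrh at day 3, which passed through siCtrl, and for Adm2 and Gdf15 at day 1. Nothing is read from their calls or their lack of overlap there.

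**Figure D2:**
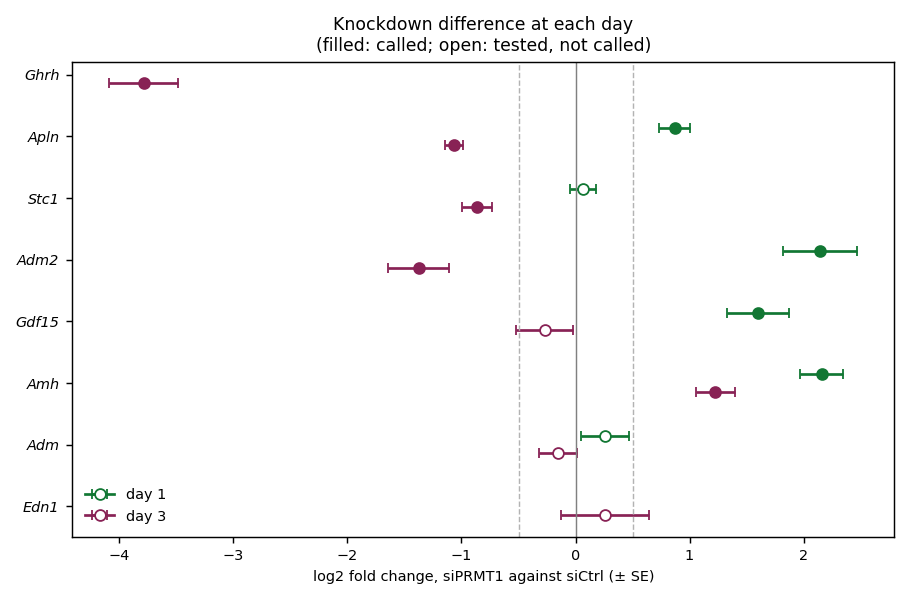
Log2 fold change of siPRMT1 against siCtrl (x axis) with its standard error, for the 8 genes tested at either day (y axis). Green is day 1 and purple day 3, filled points were called and open points were not, and dashed lines mark 0.5. Adm2 and Apln lie to the right of 0 at day 1 and to the left at day 3, while Amh lies to the right at both.

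Leaving out single libraries changed the day 1 calls. Without siCtrl day 1 replicate 2, or without siPRMT1 day 1 replicate 2 or 3, 1 member was called, Amh in each case, and without siPRMT1 day 1 replicate 1 there were 2, Amh and Adm2. The calls over all genes fell in these same fits from 487 to between 123 and 185. Without siCtrl day 1 replicate 3, the library that stood apart, the same count was 873, and all 4 members were called. The day 3 calls held in all 6 fits that left out 1 library.

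Ghrh, growth hormone-releasing hormone, is the hypothalamic peptide that drives growth hormone release, and was barely detected at day 1. The 3 siCtrl libraries of day 1 held 4, 1 and 0 counts and the 3 siPRMT1 libraries 0 each, so no fold is given there. At day 3 the siCtrl libraries held 102, 85 and 83 counts (4.98, 5.63 and 3.45 CPM), and the siPRMT1 libraries 8, 4 and 12 (0.366, 0.149 and 0.477 CPM). All 3 siPRMT1 libraries were low, with the highest at 0.477 CPM and the lowest siCtrl library at 3.45 CPM. The fitted log2 fold change was -3.79 ± 0.30 (SE, n = 3 per group), that is 13.8-fold lower. Ghrh passed the filter at day 3 only through siCtrl, so this direction was set by the filter. In siCtrl the pooled counts of the group rose from 5 to 270, a depth-scaled ratio of 73.9 with a 95% counting interval of 31.3 to 229, which covers counting error only. In siPRMT1 the day 3 mean of 0.331 CPM was at least 2.76-fold higher than the level that 3 counts per library would give at day 1.

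Ghrh is on chromosome 2 (157329496 to 157348728, minus strand). All gene positions here are those of the deposited count table, on mm10. Over the 12 libraries, the 2 genes whose centred log2(CPM + 1) profiles lay nearest to that of Ghrh were Ppp1r3b, at a root-mean-square distance of 0.284, and Gpr35, at 0.331. The added 1 shrinks the differences of genes near or below 1 CPM. A low member can therefore lie near a more abundant gene with smaller fold changes, here and for the members below. Ppp1r3b, a subunit that targets protein phosphatase 1 to glycogen, averaged 8.23 CPM in siCtrl and 2.27 CPM in siPRMT1 at day 3. At day 3 the summed adipocyte markers were also lower in siPRMT1 (1579 to 1721 CPM) than in siCtrl (1988 to 2177 CPM), and their part in the Ghrh difference was not tested.

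Amh, anti-Müllerian hormone, is the TGF-β family member that makes the Müllerian ducts regress in male embryos. At day 1 the siCtrl libraries held 1.32, 1.74 and 2.13 CPM and the siPRMT1 libraries 6.5, 7.37 and 8.19 CPM. At day 3 they held 1.81, 1.79 and 1.91 CPM against 3.57, 4.89 and 4.33 CPM. The siPRMT1 libraries were higher at both days, with no overlap, and the day 1 libraries were the higher of them. The log2 fold changes were 2.16 ± 0.19 at day 1 (4.46-fold) and 1.23 ± 0.17 at day 3 (2.34-fold), and Amh stayed called in all 6 fits that left out 1 library at each day.

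Amh lies on chromosome 10 (80805028 to 80807679, plus strand) between close neighbours, and the strand setting of the counting is not given in the sources used here. Sf3a2, on the same strand with a gap of 104 bases, encodes a splicing factor subunit and differed by 0.16 ± 0.12 (log2) at day 1 and by -0.26 ± 0.08 at day 3, neither called. Jsrp1, on the other strand with a gap of 815 bases, encodes a junctional sarcoplasmic reticulum protein. It was low, averaging 0.221 CPM in siCtrl and 0.735 CPM in siPRMT1 at day 1, and was called higher there by 1.80 ± 0.32 (edgeR, adjusted p = 0.0174). It passed the filter at day 1 only through siPRMT1, so that direction was set by the filter. At day 3 its difference of 0.79 ± 0.41 was not called. Whether reads of either neighbour were counted for Amh was not tested.

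Within 500000 bases of Amh, 44 genes were tested at day 1, and 2 were called higher, Jsrp1 and Atp8b3, and 0 lower, where 1.95% of all genes tested were called higher. Not all siCtrl libraries of Jsrp1 (7, 5 and 5 counts) or Atp8b3 (6, 9 and 11) reached the filter's level. Both passed only through siPRMT1, so their direction was set by the filter and nothing is read from it. At day 3, when Amh was still higher, 0 of 47 were called higher and 2 lower, Pcsk4 at -0.60 ± 0.11 and Reep6 at -0.78 ± 0.12 (edgeR, adjusted p = 0.0019 and 3.5e-04). Atp8b3, a putative phospholipid flippase 265874 bases away, differed by 3.31 ± 0.34 (edgeR, adjusted p = 0.0030), from 0.376 to 3.24 CPM. It was also the gene with the profile nearest to that of Amh, at 0.255, followed by Col9a3, a collagen IX chain, at 0.272. The window of 500000 bases was set after the values had been seen, and the median log2 fold change in it was 0.15 at day 1 and -0.05 at day 3. The same window was read around the other called members. For Ghrh, 0 of 16 genes were called at day 1 and 0 of 18 at day 3, and for Gdf15 0 of 39 at both. Adm2 had 0 of 20 at day 1 and 2 of 21 at day 3, called lower. Apln had 1 of 9 called higher at each day, and Stc1 had 0 of 1 at each.

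Adm2, also called intermedin, belongs to the calcitonin peptide family and widens blood vessels. Its CPM was 0.564, 0.436 and 0.496 for siCtrl and 1.36, 2.39 and 2.91 for siPRMT1 at day 1. The day 3 libraries gave 1.81, 1.39 and 1.2 CPM for siCtrl and 0.594, 0.448 and 0.636 CPM for siPRMT1. The siPRMT1 libraries were thus all above siCtrl at day 1 and all below it at day 3. At day 1 Adm2 passed the filter only through siPRMT1, so nothing is read from that separation. The log2 fold changes were 2.14 ± 0.32 (4.42-fold higher) and -1.38 ± 0.27 (2.59-fold lower). The day 1 call was lost in 3 of the 6 fits that left out 1 library, although the fold change stayed between 1.90 and 2.37.

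Without the library that stood apart, the day 1 log2 fold changes of the 4 called members were 2.32 for Amh, 2.11 for Adm2, 1.01 for Apln and 1.84 for Gdf15. Adm2 is on chromosome 15 (89322720 to 89324731, plus strand). The gene with the profile nearest to it, among 12465 genes averaging at least 1 CPM, was Chac1, a glutathione-degrading enzyme induced by ATF4, at 0.243. Chac1 averaged 12.9 CPM in siCtrl and 29.8 CPM in siPRMT1 at day 1, and 28.2 and 17.8 CPM at day 3. The second was 5430416N02Rik, at 0.245.

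Adm, adrenomedullin, is another vasodilator of the same family, on chromosome 7 (110627669 to 110629819, plus strand), and did not differ between the siRNA groups by more than the spread of the libraries. At day 1 its CPM was 1.28, 1.06 and 0.942 for siCtrl and 1.49, 1.25 and 1.21 for siPRMT1, and at day 3 it was 5.47, 5.83 and 3.95 against 3.80, 5.07 and 4.45. The groups overlapped at both days. The log2 fold changes were 0.26 ± 0.21 and -0.15 ± 0.16, and both intervals of 2 SE, -0.16 to 0.68 at day 1 and -0.48 to 0.17 at day 3, included 0.

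Apln encodes apelin, the adipokine that acts on a G-protein-coupled receptor of vessels and heart. It was the most abundant member per length in every group. At day 1 its CPM was 5.96, 6.97 and 8.63 for siCtrl and 12.2, 12.4 and 13.5 for siPRMT1. The day 3 libraries gave 78.3, 84.6 and 83.5 CPM for siCtrl and 39.7, 36.0 and 41.1 CPM for siPRMT1. The siPRMT1 libraries were higher at day 1 and lower at day 3, and the libraries of a group lay close together at day 3. The log2 fold change was 0.87 ± 0.14 at day 1 (1.83-fold) and -1.07 ± 0.08 at day 3 (2.09-fold lower), and the day 1 call was lost in 4 of 6 fits that left out 1 library. Apln is on the X chromosome (48025146 to 48034852, minus strand), and its nearest profiles were those of Dennd2d (0.231) and of Dusp4, a MAP kinase phosphatase (0.266).

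Endothelial markers were read beside Apln and Edn1, since endothelium makes both peptides. The summed CPM of 9 endothelial markers was 12.1 to 14.2 in siCtrl and 8.73 to 11.1 in siPRMT1 at day 3, and 5.08 to 6.84 and 4.86 to 5.52 at day 1. Most of it was Egfl7, at 9.77 and 7.0 CPM at day 3, and Cdh5, the cadherin of endothelial junctions, was the 1 of 3 markers tested at day 3 that was called, at -1.19 ± 0.36 on the log2 scale (edgeR, adjusted p = 0.0340). It had 6 to 29 counts a library, DESeq2 did not call it (adjusted p = 0.0764), and 2 of the 6 fits that left out 1 library did. Cdh5 passed the filter only through siCtrl, so its direction was set by the filter. Cldn5 was at 0 in every library and Kdr averaged at most 0.0305 CPM. The part of endothelial RNA in the Apln difference was not tested. Macrophage markers had sums of 3.98 to 5.52 CPM over all libraries with Ptprc at 0. Lyz2, the lysozyme of myeloid cells, was called at day 1, at -1.52 ± 0.38 (edgeR, adjusted p = 0.0486), from 4 to 48 counts a library, and not by DESeq2 (adjusted p = 0.0502), and 1 of the 6 fits that left out 1 library called it. Lyz2 also passed the filter only through siCtrl, so its direction was set by the filter. Hepatocyte markers had sums of at most 0.993 CPM.

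Edn1, on chromosome 13 (42301476 to 42307990, plus strand), encodes endothelin 1, a strong vasoconstrictor. It had 3 to 10 counts a library at day 1, too few for a test, and 0.781, 0.597 and 0.249 CPM in siCtrl and 0.457, 0.746 and 0.636 CPM in siPRMT1 at day 3. The groups overlapped. The day 3 log2 fold change was 0.26 ± 0.39, and its interval of 2 SE ran from -0.51 to 1.03. Without siCtrl day 3 replicate 3, the lowest library, it was -0.16.

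Gdf15, growth differentiation factor 15, signals to the brainstem through GFRAL and lowers appetite, and cells under integrated stress release it. At day 1 its CPM was 0.319, 0.484 and 0.645 for siCtrl and 1.32, 1.40 and 1.33 for siPRMT1. The day 3 values were 1.32, 1.66 and 1.5 CPM for siCtrl against 0.777, 1.31 and 1.51 CPM for siPRMT1. The groups were apart at day 1 and overlapped at day 3. At day 1 Gdf15 passed the filter only through siPRMT1, so nothing is read from its separation there. The log2 fold change was 1.60 ± 0.27 at day 1 (3.03-fold) and -0.27 ± 0.25 at day 3, with an interval of 2 SE of -0.76 to 0.22. Its day 1 call was lost in 4 of 6 fits that left out 1 library. Gdf15 is on chromosome 8 (70629393 to 70632470, minus strand), and the nearest profiles were those of Rnf44 (0.117) and Zfp787 (0.124). Rnf44 averaged 82.5 CPM in siCtrl and 117 CPM in siPRMT1 at day 1, a smaller fold than that of Gdf15.

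Fgf21, the fasting hormone, is on chromosome 7 (45613890 to 45619350, minus strand) and had at most 11 counts in any library. At day 1 the counts were 2, 2 and 2 in siCtrl and 3, 6 and 11 in siPRMT1, a depth-scaled ratio of the group totals of 3.60 with a 95% counting interval of 1.40 to 11. At day 3 the counts were 9, 4 and 8 against 6, 5 and 4, a ratio of 0.577 with an interval of 0.277 to 1.17. The intervals cover counting error only and not the spread between libraries. Fgf21 shares 83 exon bases with Fut1 on the other strand, and Fut1 averaged 0.0430 CPM.

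The stanniocalcins are secreted glycoproteins first known from calcium control in fish. Stc1 averaged 7.97 CPM in siCtrl and 8.19 CPM in siPRMT1 at day 1, where the groups overlapped. At day 3 its CPM was 14.8, 12.1 and 12 for siCtrl and 8.41, 6.16 and 6.71 for siPRMT1, with every siPRMT1 library below every siCtrl library. The log2 fold changes were 0.07 ± 0.11 and -0.87 ± 0.13 (1.82-fold lower). The nearest profiles to that of Stc1, on chromosome 14 (69029289 to 69041401, plus strand), were Fam117b (0.151) and Tns4 (0.156). Stc2, an inhibitor of the pappalysin proteases that free insulin-like growth factors, is on chromosome 11 (31359441 to 31370061, minus strand) and had 0 to 5 counts a library. Its day 1 counts were 1, 0 and 0 in siCtrl and 3, 2 and 5 in siPRMT1, a ratio of 10.8 with a counting interval of 1.54 to 469.

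Per length, in FPKM, Apln led in every group, with 2.19, 4.09, 26.3 and 12.6 FPKM in siCtrl day 1, siPRMT1 day 1, siCtrl day 3 and siPRMT1 day 3. At day 1 its range overlapped that of the next member in both groups, Stc1 in siCtrl and Amh in siPRMT1, and at day 3 it stood clear in both. In siCtrl at day 3 the order after Apln was Adm (3.71), Stc1 (3.49), Ghrh (1.78), Adm2 (1.14), Gdf15 (1.07), Amh (0.953), Fgf21 (0.273), Edn1 (0.257) and Stc2 (0.0533 FPKM). The neighbours Adm and Stc1 overlapped, as did those from Ghrh down to Amh, and Fgf21 with Edn1. In siPRMT1 at day 3 Amh (2.24) had moved up beside Stc1 (1.93), and Ghrh (0.127 FPKM) was next to last.

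The days were also compared within each siRNA group. In siCtrl, 6 of the 7 members tested were called higher at day 3 than at day 1 and 0 lower, where 22.7% of 13829 genes were called higher and 20.4% lower. In siPRMT1, 3 of 7 were called higher and 2 lower, where 19% of 14224 genes were called higher and 17.4% lower. The siCtrl count includes Ghrh, with 4, 1 and 0 counts at day 1 and 102, 85 and 83 at day 3, and the siPRMT1 count includes Edn1, with 5, 9 and 4 against 10, 20 and 16. Both passed the filter only through day 3, so their direction was set by the filter and nothing is read from their calls. In siCtrl at day 1, Gdf15 had 13, 10 and 13 counts and Adm2 had 23, 9 and 10. Not all of these reached the filter's depth-scaled level, so both genes passed it in siCtrl only through day 3. Nothing is read from the direction of those siCtrl calls either. Without siCtrl day 1 replicate 3, 7 of 8 members tested in siCtrl were called higher, the added one being Edn1, and the calls over all genes went from 5969 to 6638. Edn1 passed the filter in that fit only through day 3, so nothing is read from its direction. Adm and Apln rose in both groups, by 2.17 ± 0.22 and 3.53 ± 0.14 (log2) in siCtrl and by 1.76 ± 0.17 and 1.61 ± 0.08 in siPRMT1. Adm2 was called higher at day 3 in siCtrl, by 1.51 ± 0.27, and lower in siPRMT1, by -2.0 ± 0.30. Gdf15 and Stc1 were called higher in siCtrl, by 1.70 ± 0.29 and 0.70 ± 0.13, and gave -0.16 ± 0.23 and -0.22 ± 0.13 in siPRMT1, neither called. Without siCtrl day 1 replicate 3 the siCtrl values were 2.05 for Adm, 3.68 for Apln, 1.48 for Adm2, 1.94 for Gdf15 and 0.67 for Stc1, all called. Amh was called lower in siPRMT1, by -0.78 ± 0.13, and Edn1 higher there, by 1.36 ± 0.37. The 2 comparisons of days share no library with each other, but each shares libraries with the knockdown comparisons, so they are 4 views of the same 12 libraries.

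**Figure D3:**
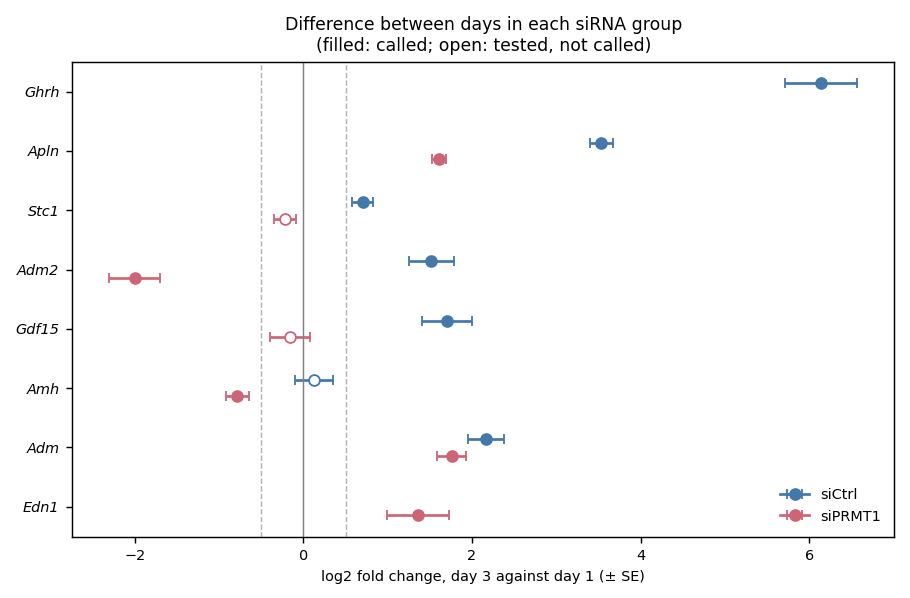
Log2 fold change of day 3 against day 1 (x axis) with its standard error within siCtrl (blue) and siPRMT1 (red), for the members tested (y axis). Filled points were called and open points were not. Adm2 lies on opposite sides of 0 in the 2 groups, and Apln is to the right in both with a smaller value in siPRMT1.

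The difference between the knockdown effects of the 2 days was fitted as an interaction over all 12 libraries. Of 8 members tested, 5 were called, where 8.24% of 14612 genes were called in either direction. All 5 were negative, meaning that the siPRMT1 level was lower relative to siCtrl at day 3 than at day 1: Adm2 by -3.50 ± 0.43, Apln by -1.92 ± 0.16, Gdf15 by -1.86 ± 0.39, Amh by -0.92 ± 0.26 and Stc1 by -0.91 ± 0.18. Without siCtrl day 1 replicate 3 these were -3.51, -2.10, -2.13, -1.11 and -0.91, Fgf21 passed the filter and was called lower as well, and the calls over all genes rose from 1204 to 1907. Fgf21 reached the filter's level only in siPRMT1 day 1 replicate 3 and siCtrl day 3 replicate 1. High values in those groups make the interaction negative, so nothing is read from its sign. Amh lost its call in 8 of the 12 fits that left out 1 library, and the other 4 held in all 12. Ghrh is not given here, since its siPRMT1 day 1 libraries were at 0.

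The receptors of the members were mostly not called. Of 16 receptor and coreceptor genes, 8 were tested at day 1, and 1 was called higher and 1 lower. Over all genes tested at that day, 1.95% were called higher and 1.61% lower. Ramp3 and Ramp2 are accessory proteins that turn the calcitonin receptor-like receptor, Calcrl, into receptors for adrenomedullin and intermedin. Ramp3 had 22.2, 21.7 and 28.4 CPM in siCtrl and 47.1, 52.3 and 49.1 CPM in siPRMT1 at day 1, a log2 fold change of 1.07 ± 0.11 (edgeR, adjusted p = 0.0030), which was called in all 6 fits that left out 1 library. At day 3 Ramp3 had dropped to 0.484 and 0.636 CPM. Ramp2 was lower at day 1, with 0.564, 0.484 and 0.446 CPM against 0.212, 0.184 and 0.121 CPM. It differed by -1.51 ± 0.36 (edgeR, adjusted p = 0.0398), from 3 to 5 counts a library in siPRMT1, and was called in only 1 of 6 fits that left out 1 library, the one without siCtrl day 1 replicate 3, and in 2 of 6 alternatives that kept every library. Its siPRMT1 libraries were below the filter's level. Ramp2 thus passed only through siCtrl, so its direction was set by the filter and nothing is read from it. Calcrl averaged 29.8 and 28.7 CPM at day 1.

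**Figure D4:**
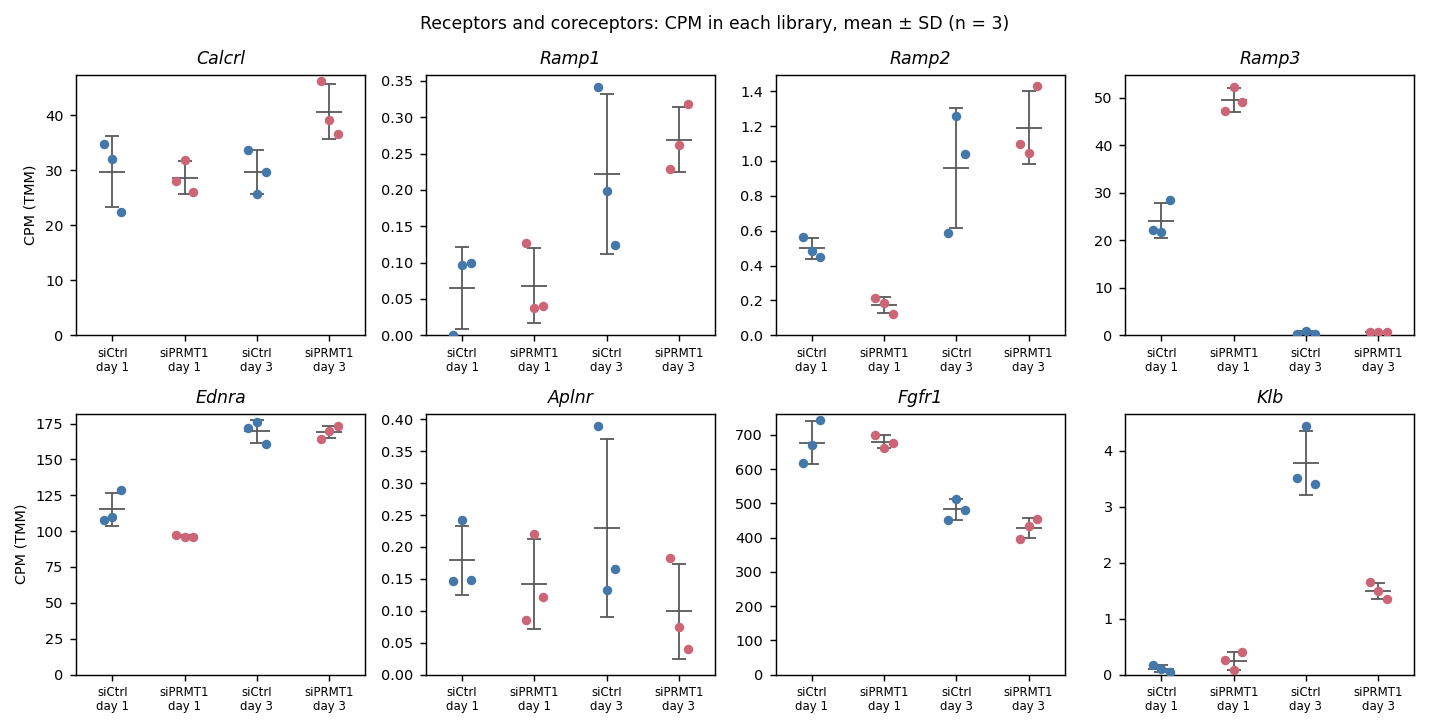
CPM (y axis, linear, scaled within each panel) of 8 receptor and coreceptor genes in the 12 libraries by group (x axis), with the mean and SD of 3 libraries. Blue is siCtrl and red siPRMT1. Ramp3 is high at day 1 and near 0 at day 3, while Klb is near 0 at day 1 and higher in siCtrl than in siPRMT1 at day 3.

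At day 3, 10 receptor genes were tested and 1 was called, lower, where 3.8% of all genes tested were called lower. The gene called was Klb, β-klotho, the coreceptor without which FGF21 cannot signal. It had 3.51, 4.44 and 3.41 CPM in siCtrl and 1.65, 1.49 and 1.35 CPM in siPRMT1, a log2 fold change of -1.31 ± 0.18 (edgeR, adjusted p = 1.4e-04) that held in all 6 fits that left out 1 library. Klb had 1 to 10 counts a library at day 1, so its rise between the days in siCtrl, 4.90 ± 0.32 (log2), and in siPRMT1, 2.61 ± 0.35, starts from near the floor. In both comparisons of days Klb passed the filter only through day 3, so that direction was set by the filter. Fgfr1, its partner receptor, averaged 482 and 429 CPM at day 3 and was not called. Ghrhr, Gfral and Ednrb, which encode the receptors for GHRH and GDF15 and the endothelin B receptor, had at most 1 count in any library, and Aplnr, the apelin receptor, had at most 8. The median log2 fold change of the receptor genes tested was -0.07 at day 1 and 0.24 at day 3. Over all genes it was 0.0096 and 0.0073.

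Of 18 genes for the processing and breakdown of peptides, 9 were tested at each day and 0 were called by edgeR, with 4 at day 1 and 3 at day 3 at an unadjusted p under 0.05. DESeq2 called 0 as well at both days. Without the threshold on the fold change 1 passed at day 1 and 2 at day 3. They were Cpe, the carboxypeptidase that trims prohormones, at -0.21 ± 0.05 at day 1 (edgeR, adjusted p = 0.0486) and 0.36 ± 0.07 at day 3 (adjusted p = 0.0029), and Cpd at -0.29 ± 0.07 at day 3 (adjusted p = 0.0091). The median was -0.21 at day 1 and 0.13 at day 3, against 0.0096 and 0.0073 over all genes. Of all genes tested, 1.95% were called higher and 1.61% lower at day 1, and 2.84% and 3.8% at day 3. Pam, the enzyme that amidates peptides such as adrenomedullin, gave -0.25 ± 0.07 and 0.21 ± 0.08 and was not called.

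Of 42 other genes for secreted peptide hormones, 10 were tested at day 1 and 9 at day 3, and 0 were called by edgeR at either day, with 6 and 4 at an unadjusted p under 0.05. DESeq2 called 1 at day 1 and 0 at day 3. The 1 was Agt, angiotensinogen, which fell just outside the threshold in edgeR at -0.62 ± 0.16 (adjusted p = 0.0504) and was called under all 6 alternatives that kept every library and in 0 of the 6 fits that left out 1, where it ran from -0.76 to -0.45 with adjusted p up to 0.155. Retn, resistin, gave -0.42 ± 0.08 at day 3 (adjusted p = 0.0028), which was below the fold-change threshold. The medians were 0.34 and -0.27, against 0.0096 and 0.0073 over all genes. The shares of all genes called were 1.95% higher and 1.61% lower at day 1, and 2.84% and 3.8% at day 3.

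Target genes of 4 transcription programs (ATF4, the hypoxia-inducible factors, p53 and cAMP) were listed from general knowledge and counted in the same way. Over all genes tested, 1.95% were called higher and 1.61% lower at day 1, and 2.84% and 3.8% at day 3. The median log2 fold change over all genes was 0.0096 at day 1 and 0.0073 at day 3. Of 14 target genes of ATF4, the transcription factor of the integrated stress response that acts on Gdf15, Fgf21 and Stc2, 5 were called higher and 0 lower at day 1 and 0 higher and 4 lower at day 3. After knockdown, Trib3, a pseudokinase, rose by 1.57 ± 0.09 at day 1 (edgeR, adjusted p = 9.8e-04) and at day 3 fell by 0.96 ± 0.08 (adjusted p = 1.5e-06). Chac1 rose by 1.24 ± 0.11 and fell by 0.65 ± 0.08 (adjusted p = 0.0022 and 7.6e-05). Nupr1 gave 0.49 ± 0.09, just under the fold threshold, and fell by 0.83 ± 0.10 at day 3 (adjusted p = 3.5e-05), and Ddit4 gave 0.28 ± 0.07 and fell by 0.66 ± 0.08 (adjusted p = 5.4e-05). Of the 5 called at day 1, Trib3, Chac1 and Ddit3 held in all 6 fits that left out 1 library, Atf3 in 2 and Sesn2 in 1. In the interaction, 8 of the 14 were called, all lower, where 8.24% of all genes tested were called in either direction. The median log2 fold change of the list was 0.40 at day 1 and -0.21 at day 3.

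Of 13 tested targets of the hypoxia-inducible factors, 0 were called at day 1 by edgeR (6 at an unadjusted p under 0.05, 0 by DESeq2), and 7 were called lower at day 3. Egln3, a prolyl hydroxylase that marks these factors for destruction, fell by 0.96 ± 0.08 and Ankrd37 by 1.26 ± 0.12 (edgeR, adjusted p = 1.5e-06 and 7.3e-06). Slc2a1, the basal glucose transporter, fell by 0.72 ± 0.07 and Pdk1, the kinase that keeps pyruvate out of mitochondria, by 0.85 ± 0.09 (adjusted p = 1.3e-05 and 1.8e-05). The median was -0.04 at day 1 and -0.62 at day 3. Of 14 p53 targets, 0 were called at day 1 (6 at an unadjusted p under 0.05, 0 by DESeq2) and 2 at day 3, Plk2 at 0.91 ± 0.08 and Eda2r at 0.77 ± 0.13 (adjusted p = 4.2e-06 and 8.7e-04). Of 11 tested cAMP targets, Per1 was called higher at day 1, by 0.55 ± 0.08 (adjusted p = 0.0079, held in 3 of 6 fits that left out 1 library), and Ppargc1a at day 3, by 0.55 ± 0.13 (adjusted p = 0.0117, held in 5 of 6). The medians of the p53 and cAMP lists lay between 0.05 and 0.20 at both days. The study counts p21 (Cdkn1a), Sestrin2 (Sesn2) and PGC1α (Ppargc1a) among p53 target genes. Here Cdkn1a gave 0.16 ± 0.07 at day 1 and -0.16 ± 0.07 at day 3, neither called. Sesn2, called higher at day 1 by 0.56 ± 0.10, was listed under ATF4, and Ppargc1a under cAMP.

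**Figure D5:**
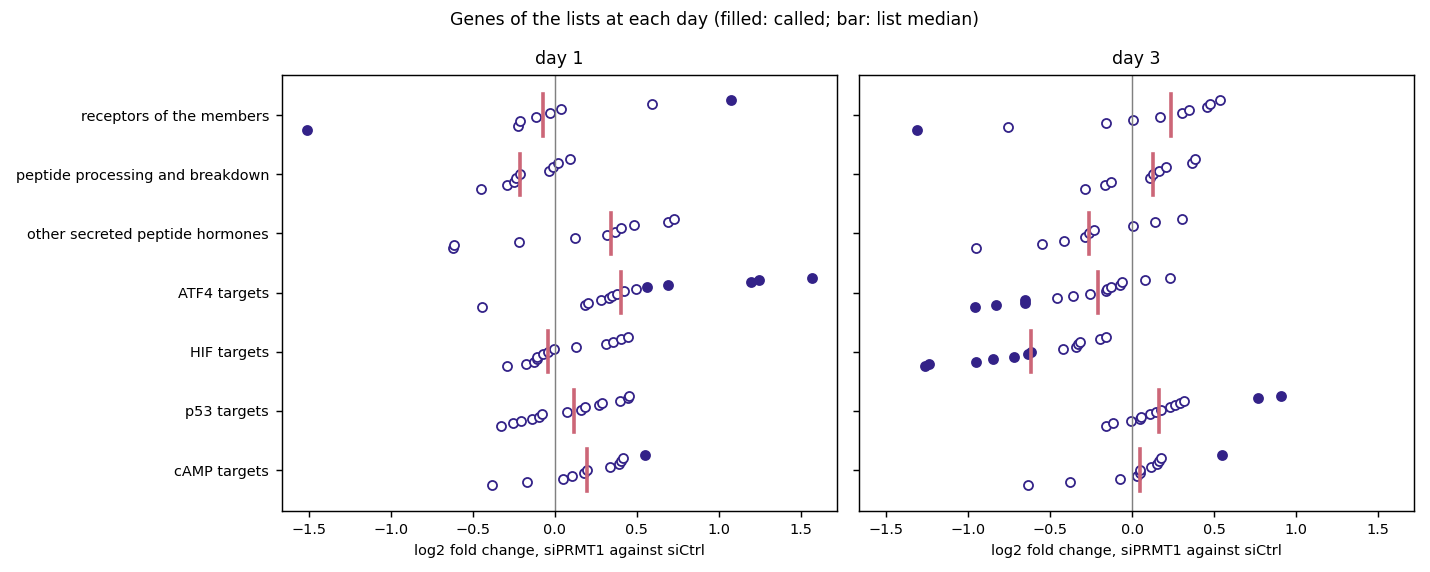
Log2 fold change of siPRMT1 against siCtrl (x axis) at day 1 (left) and day 3 (right) for the genes tested in 7 lists (y axis). Filled points were called, open points were not, and the red bar is the median of the list. ATF4 targets lie mostly right of 0 at day 1, and the HIF targets lie left of 0 at day 3.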

How the data were processed

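Per the labels and the study's methods, 12 libraries from an mRNA library kit were sequenced, and the submitters' processing notes name cutadapt 1.11, HISAT2 2.1.0, RSEM 1.2.6 and the mm10 build. RSEM is a quantification tool that gives estimated counts, while the deposited counts are whole numbers, so whether it made them is unclear. The strand setting and the handling of multiply mapped reads are not given in the sources used here. The deposited tables hold raw read counts per gene, made by the authors, and FPKM per gene, made by the authors from the counts, which recomputing matched to within 0.005.

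Counts were tested with edgeR 4.0.16 (R 4.3.3) with TMM normalization, the default filter on low counts and the quasi-likelihood test, with Benjamini-Hochberg adjustment over all genes tested. Knockdown at each day, days within each siRNA group (6 libraries each) and the interaction (12 libraries) were fitted. Standard errors were taken as the absolute log2 fold change over the root of edgeR's F statistic. CPM used TMM-scaled totals. DESeq2 1.42.0, other normalization and filters, a replicate block and leaving out each library were tried as alternatives. Scripts were tested on simulated data.

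The members and the gene lists were chosen with earlier results of these data known. Text names all 10 members, every gene called in a list (the 4 with the smallest p where over 4 were called), defining cell markers, and the 2 nearest profiles of each called member that averaged at least 1 CPM. Genes outside that rule (Calcrl, Fgfr1, Aplnr, Ghrhr, Gfral, Ednrb, Pam, Cpe, Cpd, Agt, Retn, Ddit3, Atf3, Sesn2, Cdkn1a, Pcsk4, Reep6 and the neighbours of Amh and Fgf21) were named after their values were seen. No 2 libraries of a group agreed within sampling noise.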

Additional observations from a re-analysis of the deposited data

Results flagged for a closer look

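The knockdown differences of 5 members differed between the days by the interaction test of edgeR over all 12 libraries. On the log2 scale, day 3 minus day 1, Adm2 gave -3.50, Apln -1.92, Gdf15 -1.86, Amh -0.92 and Stc1 -0.91. Adm2 and Apln were higher in all 3 siPRMT1 libraries than in any siCtrl library at day 1 and lower in all 3 at day 3. Amh was higher in all 3 at both days, by less at day 3. Gdf15 was apart at day 1 only, and Stc1 at day 3 only. Adm2 and Gdf15 passed the day 1 filter only through siPRMT1, and nothing is read from their day 1 separation. The 5 members were chosen on the same levels, so the test describes them and does not stand as independent evidence. No group had 4 or more libraries, so no library was tested as an outlier.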

How the results depend on the processing

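With 3 libraries a group, 1 library carried weight at day 1. Leaving out 1 library gave 1 to 4 called members at day 1, 123 to 873 called genes of all, 1 to 2 called receptors at day 1 and at day 3, and 0 to 1 called other hormones at day 3. The members' calls kept their direction and side of the threshold under DESeq2, RLE normalization, no filter, at least 10 counts in every library and all 12 libraries in 1 model, wherever the gene was tested. The receptors called at day 1 numbered 1 under DESeq2, no filter and at least 10 counts. The other hormones called at day 1 numbered 1 under DESeq2, RLE, no filter, at least 10 counts and all 12 libraries. Without the fold-change threshold the receptors numbered 3 at day 3, the processing genes 1 and 2, and the other hormones 1 at day 3. Values near 0 changed sign: Stc1 at day 1 was -0.00083 without siPRMT1 replicate 2 (range with 1 library left out to 0.12), Edn1 at day 3 was -0.16 without siCtrl replicate 3 (to 0.68), Edn1 in the interaction was -0.023 under DESeq2 and -0.37 to 0.47 with 1 library left out, Amh between days in siCtrl was -0.083 without siCtrl day 1 replicate 1 (to 0.30), and Gdf15 between days in siPRMT1 was 0.051 without siPRMT1 day 3 replicate 1 (from -0.35). The causes were not tested. The alternatives for the interaction and the days were chosen after seeing the data.

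The replicate numbers are shared across groups in the labels. Same-numbered deviations correlated at -0.10, 0.27 and 0.35 at day 1 and 0.32, 0.17 and -0.07 at day 3, and not every sample correlated best with its own. Deviations centred within 3 libraries are tied to each other, so these values cannot settle whether same-numbered samples were paired. A replicate block gave 536 against 487 called genes at day 1 and 974 against 933 at day 3, 4 and 5 members, 1 receptor against 2 at day 1 and 1 other hormone against 0 at day 1, and changed no other count by over 1.5 times. Depth limits Fgf21, Stc2, Edn1 at day 1 and Ghrh at day 1, which had too few counts for a test.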
